A study of Homo sapiens with 8 samples.

Results

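AP-1 is a dimeric transcription factor built from proteins of the Jun and Fos families, and 10 genes of this system and of the immediate early response were examined in normoxic and hypoxic SQ20B cells. They were taken by name: the Fos genes FOS, FOSB, FOSL1 and FOSL2, the Jun genes JUN, JUNB and JUND, the AP-1 repressor JDP2, the zinc finger factor EGR1 and the stress response gene IER3. The choice was made with earlier results of these data known. Transcripts of 9 of the 10 genes were analysed, 10 transcripts among 24812 in the table, and 8 of the genes had a mean of at least 0.5 FPKM over both conditions, as did 12106 of 14528 genes in all. FOSB was not analysed here, and EGR1 lay below the limit. FPKM counts fragments relative to the length of a transcript and to the mapped fragments of a library, so that levels of different genes can be set side by side.

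SQ20B is an established line of human head and neck squamous carcinoma cells. Poly(A)-selected, stranded libraries were made from 4 samples labeled normoxia and from 4 samples kept at 0.5% oxygen for 16 h, and all samples were grown in high-glucose DMEM with fetal bovine serum. The labels repeat the hypoxia treatment text for the normoxia samples, which were assigned by their source label. The table gives 1 FPKM value per condition and none per sample, so the values below carry no spread between replicates and no test of their own. The table's columns of the authors' own comparison of the conditions were not used, and the read depth behind each value was not analysed here.

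In resting cells immediate early genes are kept at low levels, and growth factors, serum or stress raise them within minutes through MAP kinases, which act on factors already bound at their promoters. Their messages are short-lived, in part because AU-rich elements in the 3′ untranslated region speed their decay. Jun proteins can pair with one another, whereas Fos proteins need a Jun partner to bind the AP-1 site, so the supply of each subunit bears on which dimers can form. In squamous epithelium AP-1 takes part in proliferation, differentiation and invasion.

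The promoters of the members are shown because most of the genes that were higher in hypoxia share letters there with genes that were not. RefSeq promoter sequences (GRCh38.p14) were matched for 8 of the 10 genes, FOSL1 and IER3 having none in the table, and the 140 bases before the start site of 6 genes are printed from 5′ to 3′. Each was found once on its chromosome in GRCh37, the build of the deposited table (hg19), and carries those coordinates. Capitals mark TGACG, the core of the cAMP response element, on either strand (CGTCA on the other), the variant TGACATCA in JUN, and the CArG boxes of EGR1, which bind serum response factor.
FOS (chr14:75745391-75745530, plus strand): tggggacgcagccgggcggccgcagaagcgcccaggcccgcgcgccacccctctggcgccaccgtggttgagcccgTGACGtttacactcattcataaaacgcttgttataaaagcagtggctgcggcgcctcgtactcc
FOSL2 (chr2:28615585-28615724, plus strand): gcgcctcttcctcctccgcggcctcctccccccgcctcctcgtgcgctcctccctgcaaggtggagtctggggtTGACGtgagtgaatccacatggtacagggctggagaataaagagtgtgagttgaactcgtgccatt
JUN (chr1:59249720-59249859, minus strand): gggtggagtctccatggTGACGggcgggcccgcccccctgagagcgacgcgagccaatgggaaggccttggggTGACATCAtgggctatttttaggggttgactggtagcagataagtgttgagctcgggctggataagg
JUNB (chr19:12902160-12902299, plus strand): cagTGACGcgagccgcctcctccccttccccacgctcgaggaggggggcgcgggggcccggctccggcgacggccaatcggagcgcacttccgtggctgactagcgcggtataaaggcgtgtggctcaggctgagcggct
JUND (chr19:18392433-18392572, minus strand): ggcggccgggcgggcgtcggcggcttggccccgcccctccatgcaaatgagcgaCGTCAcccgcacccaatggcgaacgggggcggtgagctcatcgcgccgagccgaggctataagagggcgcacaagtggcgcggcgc
EGR1 (chr5:137801028-137801167, plus strand): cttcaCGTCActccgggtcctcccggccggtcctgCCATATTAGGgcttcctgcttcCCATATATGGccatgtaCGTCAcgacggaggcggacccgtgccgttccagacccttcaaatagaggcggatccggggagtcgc

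TGACG was found on either strand in all 8 genes with a promoter sequence, in 8 of their 10 entries, since JDP2 has 3 entries and holds it in 1. The same letters were found in 14.7% of all 35116 promoter entries at this length, and in 21.2% of the entries over the whole 250 bases before the start, where the members again counted 8 of 10. The length of 140 bases was set after the positions were seen. The match began 64 bases before the start in FOS, 66 in FOSL2, 60 in FOSB and 137 in JUNB. JUND and EGR1, which were not past 1.5-fold in either direction, held it as well, at 86 bases in JUND and at 66 and 135 bases in EGR1. Within the 140 bases, CArG boxes were found in EGR1, at 83 and 105 bases, and in 0.749% of all entries. Sequence farther than 250 bases before the start was not searched, so sites there in FOS or other members would be missed. ACGTG or GCGTG, the core of hypoxia response elements, was found in FOSL2, JUNB and EGR1 within the 140 bases and in 30.7% of all entries, and in FOSL2 it overlapped TGACG. Over 250 bases it was found in 6 of the 10 member entries and in 43.2% of all entries. The AP-1 site TGAGTCA was in none of the member entries at this length and in 2.72% of all entries. A match of letters is no evidence of binding, and the older gene models in the deposited table start inside the printed stretch for FOS, JUN and JUND.

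Of the 8 genes above the limit, 5 were higher in hypoxia by at least 1.5-fold (FOS, FOSL2, JUN, JUNB and IER3), 1 was lower (FOSL1), and JUND and JDP2 were past 1.5-fold in neither direction. Changes are given as log2 of FPKM + 0.1 in hypoxia minus that in normoxia, which understates the change of genes with low levels, and 1.5-fold is 0.58 on that scale. Among all 12106 genes above the limit, 9.95% were higher and 11.2% lower by that measure. The median log2 change was 0.75 over the 8 members and -0.07 over all genes. After scaling both conditions to the same FPKM total, 18.3% of all genes were higher and 4.94% lower, the median of all genes moved to 0.15, the same number of members, 5, was higher and none was lower.

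**Figure D1:**
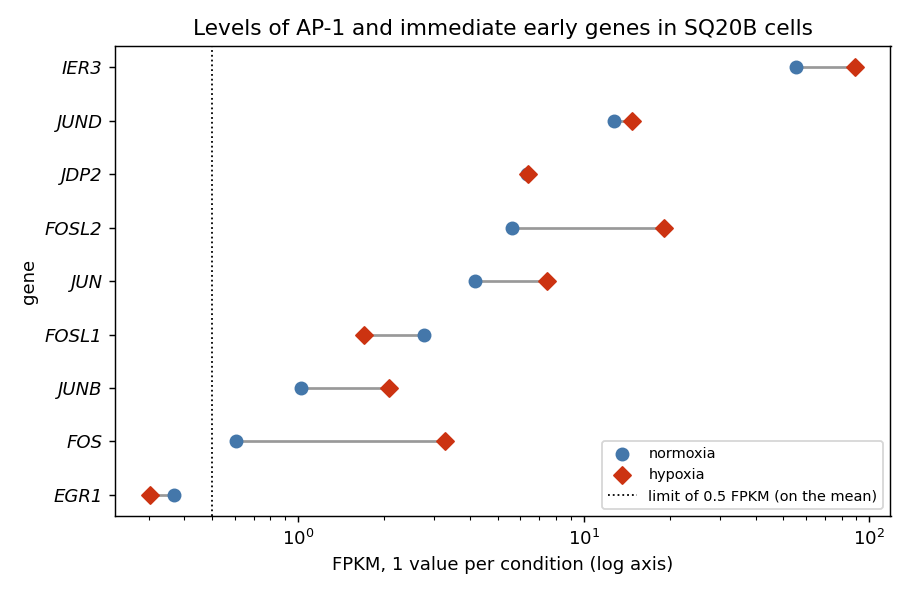
FPKM of the 9 analysed genes on a log axis, with circles for normoxia and diamonds for hypoxia, each 1 value per condition without replicate error, and a dotted line at 0.5 FPKM. FOS moved from 0.605 to 3.27 and FOSL2 from 5.63 to 19.1, while the symbols of JDP2 coincide.

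The Fos genes moved apart. FOS, the founding immediate early subunit, was at 0.605 FPKM in normoxia and 3.27 FPKM in hypoxia. Its log2 change of 2.26 was above that of 99.5% of all genes and was the largest among the members on this scale. In normoxia FOS stood close to the limit, higher than 3.95% of the genes, and in hypoxia it was higher than 28.3% of them. With 1 added to each FPKM value in place of 0.1, its log2 change was 1.41, below the 1.60 of FOSL2, so which of them changed more depends on that choice. In RNA from a whole culture, a change in every cell and a change in the share of cells that express a gene cannot be told apart. FOS was listed with 1 transcript, NM_005252, at positions 75745481 to 75748937 of chromosome 14 in hg19.

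FOSL2, which encodes Fra-2, a Fos protein without the strong activation domain of FOS, was at 5.63 FPKM in normoxia and 19.1 FPKM in hypoxia. It gained more FPKM than any other AP-1 subunit analysed, 13.5, and its log2 change of 1.74 was above that of 99.1% of all genes. Its transcript NM_005253 lies in an interval of the deposited table that spans positions 28607276 to 28637516 of chromosome 2 and also holds the antisense RNA FOSL2-AS1. FOSL2-AS1 was at 0.155 FPKM in normoxia and 0.619 FPKM in hypoxia. The antisense gene shares 1823 bases with FOSL2 in the GRCh37 annotation. The libraries were stranded, but the counting is not stated to have used strand, so reads in the shared stretch could have been assigned to either gene.

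FOSL1, which encodes Fra-1, was the member that was lower in hypoxia, at 2.76 FPKM in normoxia and 1.70 FPKM in hypoxia. Its log2 change was -0.67, a value above that of 8.16% of all genes and close to the 1.5-fold limit. Equal column sums gave -0.46 and an added 1 gave -0.48, so that FOSL1 then lay within 1.5-fold. Its transcript NM_005438 spans positions 65659692 to 65667997 of chromosome 11.

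The Fos genes analysed summed to 8.99 FPKM in normoxia and 24.1 FPKM in hypoxia. FOSL2 made up 62.6% of that sum in normoxia and 79.4% in hypoxia, FOS 6.72% and 13.6%, and FOSL1 30.7% and 7.05%. FOSL2 was 2.04 times as abundant as FOSL1 in normoxia and 11.3 times in hypoxia, and FOS went from 0.219 times to 1.93 times the level of FOSL1. These shares leave out FOSB.

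The Jun genes all had changes above 0, of unequal size. JUN, the partner of Fos proteins in the classical AP-1 dimer, was at 4.17 FPKM in normoxia and 7.43 FPKM in hypoxia, a log2 change of 0.82. JUNB, a Jun protein with weaker activation in most settings, was at 1.02 FPKM in normoxia and 2.08 FPKM in hypoxia, a log2 change of 0.96. JUND, which is expressed more constantly than the other Jun genes, was the most abundant of them in both conditions, at 12.7 FPKM in normoxia and 14.8 FPKM in hypoxia. Its log2 change of 0.21 was above that of 72.9% of all genes, against 94.8% for JUN and 96.4% for JUNB. JUN lies on chromosome 1 (59246463 to 59249785), JUNB on chromosome 19 (12902310 to 12904125) and JUND on the same chromosome (18390504 to 18392466). In the GENCODE annotation on GRCh37, which is not the one quantified, JUNB lies wholly within HOOK2 on the opposite strand. The interval given for JUNB in the deposited table does not extend beyond JUNB. HOOK2 was at 2.25 FPKM in normoxia and 1.83 FPKM in hypoxia.

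The Jun genes summed to 17.9 FPKM in normoxia and 24.3 FPKM in hypoxia. JUND made up 71.0% of this sum in normoxia and 60.8% in hypoxia, JUN 23.3% and 30.6%, and JUNB 5.72% and 8.58%. The summed level of the Fos genes was 0.502 times that of the Jun genes in normoxia and 0.992 times in hypoxia. These sums and shares are of RNA, and levels of the subunit proteins were not analysed here. Among the 6 Fos and Jun genes analysed, JUND had the highest level in normoxia and FOSL2 in hypoxia. ATF2, a bZIP factor that can pair with Jun, stood above both, at 29.4 FPKM in normoxia and 35.3 FPKM in hypoxia. Whether neighbors in this order differ beyond the spread between replicates was not tested.

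**Figure D2:**
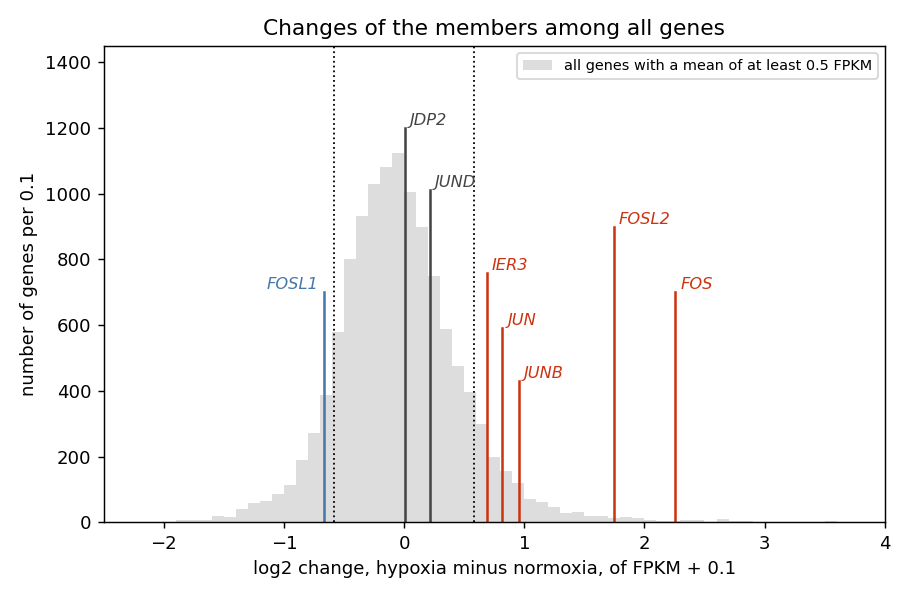
Histogram of the log2 change of 12106 genes in steps of 0.1, without the few genes beyond the axis, with colored lines at the 8 members above the limit (red, higher by at least 1.5-fold, blue, lower, gray, neither) and dotted lines at 1.5-fold in each direction. The heights of the member lines carry no value. FOS at 2.26 and FOSL2 at 1.74 lie in the upper tail, and JDP2 at 0.01 lies near the center.

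JDP2, a repressor that pairs with Jun proteins at AP-1 sites, was at 6.35 FPKM in normoxia and 6.39 FPKM in hypoxia when its transcripts were summed, a log2 change of 0.01. Its summed level was 35.4% of that of the Jun genes in normoxia and 26.3% in hypoxia. The level of its more abundant transcript, NM_001135048, was 5.43 FPKM in normoxia and 3.97 FPKM in hypoxia, a log2 change of -0.44. The other, NM_001135049, was at 0.919 FPKM in normoxia and 2.42 FPKM in hypoxia, a log2 change of 1.31 that was above that of 98.1% of all transcripts with a mean of at least 0.5 FPKM. The share of NM_001135049 in the summed JDP2 level was 14.5% in normoxia and 37.9% in hypoxia. The transcripts share 1 interval on chromosome 14 (75894509 to 75939404), so each value depends on how fragments in common exons were divided between them. Counted by transcript, 6 of the 9 member transcripts above the limit were higher by at least 1.5-fold and 1 was lower, against 10.5% and 14.3% of all 18190 transcripts above the limit.

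**Figure D3:**
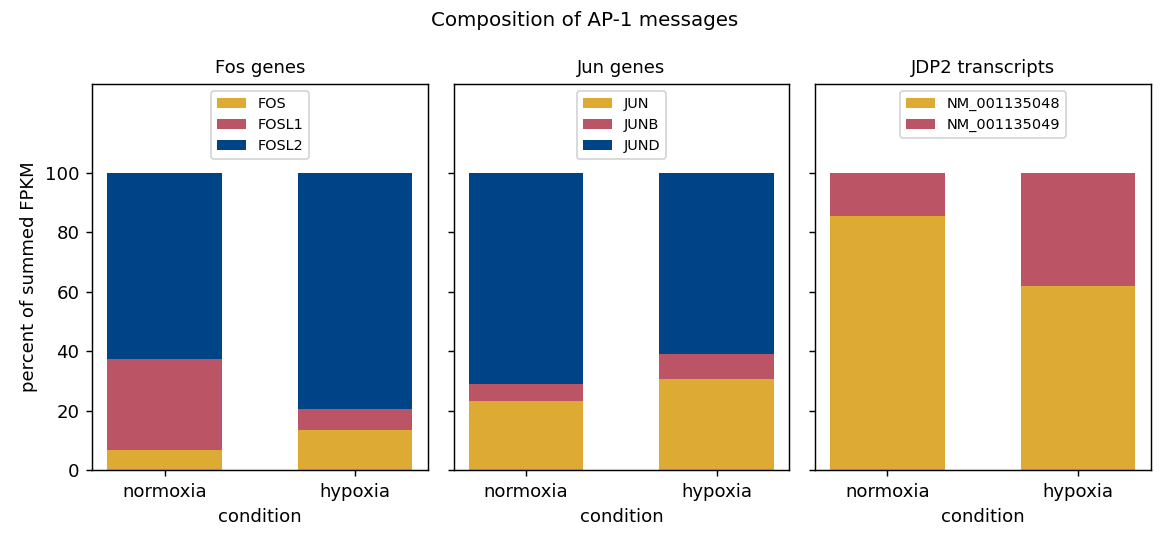
Stacked bars of the percent of summed FPKM taken by each Fos gene analysed, each Jun gene and each JDP2 transcript, in normoxia and hypoxia, from 1 value per condition. The share of FOSL2 is 62.6% and 79.4%, that of JUND 71.0% and 60.8%, and that of JDP2 NM_001135049 14.5% and 37.9%.

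The immediate early members outside AP-1 differed in level. IER3, a stress-induced regulator of cell survival that is controlled by NF-κB and other factors, was the most abundant member, at 55.5 FPKM in normoxia and 89.4 FPKM in hypoxia. Its log2 change was 0.69, above that of 92.6% of all genes, and it was higher than 86.0% of the genes in normoxia and 92.7% in hypoxia. The deposited table places IER3 on an alternate haplotype of chromosome 6 (6_ssto_hap7, positions 2043293 to 2044644), 1 of 249 transcripts on such contigs. Haplotype copies of a gene are near-identical, so how its reads were shared between copies could alter its level. EGR1, an early factor that responds to serum and stress, was at 0.367 FPKM in normoxia and 0.305 FPKM in hypoxia, a log2 change of -0.21. EGR1 was thus below the limit in each condition, and its change was not counted.

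Most members have short genes with few exons. In the GRCh37 annotation JUN, JUNB and JUND have 1 exon each, EGR1 and IER3 have 2, and FOS, FOSL1, FOSL2 and JDP2 have 4, while the median over 18645 coding genes was 8. The median span of those genes was 23279 bases, and the spans of the members included 1349 bases for IER3, 3403 for FOS and 46086 for JDP2. The pentamer ATTTA of AU-rich elements, searched on the sense strand, was counted in the 3′ untranslated regions. FOS held 5 in 806 bases, a count reached by 7.94% of the regions within 20% of its length, and IER3 held 6 in 737 bases, a count reached by 3.22%. FOSL2 held 9 in 4869 bases, a count reached by 60.2% of regions of like length. FOSL1, the lower member, held 1 in 837 bases, and 71.7% of regions of like length held at least as many. Of the other members above the limit, JUN held 3 (reached by 45.8%) and JUNB 2 (reached by 26.0%), and both were higher in hypoxia. JUND held 1 (reached by 66.9%) and JDP2 3 (reached by 91.4%), and these were past 1.5-fold in neither direction. Whether the counts bear on the changes was not tested.

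The stricter nonamer TTATTTATT was found in FOS and in FOSL2 among the 10 members, and in 8.58% of all 3′ untranslated regions. Among regions of like length it was in 5.28% for FOS and 21.2% for FOSL2. The 30 bases around it are printed because FOS and FOSL2, which held it, had the largest log2 changes among the members. Whether the nonamer bears on those changes was not tested. Capitals mark the nonamer, at base 646 of the region in FOS and base 3917 in FOSL2.
FOS: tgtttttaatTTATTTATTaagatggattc
FOSL2: atttattttaTTATTTATTttaaatgttta

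The genes around the members were mixed in direction or within 1.5-fold. Among 12 further bZIP genes whose proteins can pair with Fos or Jun, 6 were above the limit and none was past 1.5-fold, with log2 changes from -0.50 to 0.26 and a median of -0.16. Of 44 other immediate early genes, 34 were above the limit, and 9 were higher and 6 lower by at least 1.5-fold, 26.5% and 17.6% of them, with a median change of -0.01. Both shares were above those of all genes above the limit, 9.95% higher and 11.2% lower. BTG1 and BTG2, which restrain proliferation, were at 9.29 and 3.77 FPKM in normoxia and 22.2 and 7.52 FPKM in hypoxia, log2 changes of 1.25 and 0.98. KLF6, a zinc finger factor, was at 5.72 and 11.3 FPKM, a change of 0.96. Among the lower genes, DUSP4, a phosphatase that inactivates MAP kinases, was at 9.23 FPKM in normoxia and 4.75 FPKM in hypoxia (-0.95). ID3, an inhibitor of helix-loop-helix factors, had a log2 change of -0.84, and PHLDA1 one of -0.83.

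Upstream of AP-1, 29 of 32 kinases and factors were above the limit, and 2 were higher and none lower by at least 1.5-fold. These were 6.90% and 0% of them, against 9.95% and 11.2% of all genes above the limit. MAPK3, the kinase ERK1, was at 3.30 FPKM in normoxia and 5.29 FPKM in hypoxia (log2 change 0.67), and its activator MAP2K1 was at 24.8 and 37.5 FPKM (0.60). Neither was past 1.5-fold with a pseudocount of 1 (0 higher), and 1 gene of the list was lower when coding transcripts alone were summed. Among growth factors and receptors that feed the pathway, EGFR was not analysed here, and 13 of 15 were above the limit. Of these, 2 were higher (15.4%), IGF1R (0.74) and FGFR3 (0.62), and 4 were lower (30.8%). With a pseudocount of 1 neither receptor was past 1.5-fold (0 higher), and with equal FPKM sums 3 genes were higher and 3 lower. The EGFR ligand epiregulin, EREG, was at 4.07 FPKM in normoxia and 1.38 FPKM in hypoxia, a log2 change of -1.50. FGF2 was at 9.50 and 3.70 FPKM (-1.34), and amphiregulin, AREG, was at 1.62 and 0.588 FPKM (-1.32). AREG was summed over 2 entries of the same identifier, which may stand for near-identical copies of the gene.

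Of 29 genes known as AP-1 targets, 21 were above the limit, and 4 were higher and 4 lower by at least 1.5-fold, 19.0% each, with a median log2 change of 0.15. Among all genes above the limit, 9.95% were higher and 11.2% lower. The balance of the targets depended on the processing, with 2 higher and 4 lower at a pseudocount of 1, and 6 higher and 3 lower with equal FPKM sums. The shares of all genes moved as well, to 5.94% higher and 8.52% lower at a pseudocount of 1. With equal FPKM sums they were 18.3% and 4.94%. The fibronectin receptor subunit ITGA5 was at 1.42 FPKM in normoxia and 10.2 FPKM in hypoxia (log2 change 2.76). The protease gene MMP10 was at 4.76 FPKM in normoxia and 7.59 FPKM in hypoxia (0.66). The lower targets included the cyclin gene CCND1, at 75.7 FPKM in normoxia and 40.3 FPKM in hypoxia (-0.91), the calcium-binding protein gene S100A8 (-0.87) and the cytokine gene IL6 (-0.87). These genes answer to many factors besides AP-1, and whether AP-1 took part in their changes was not tested.

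**Figure D4:**
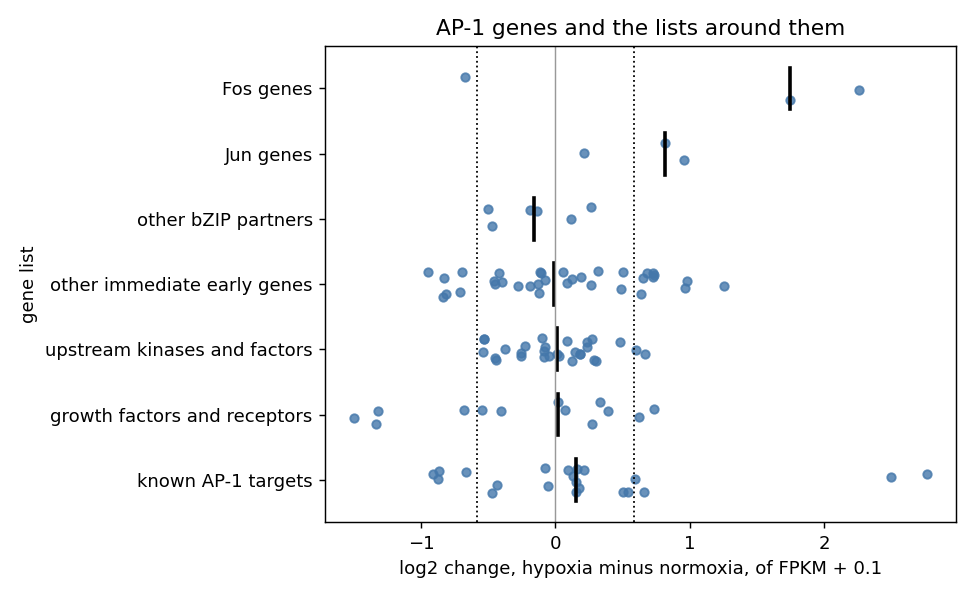
Log2 change in hypoxia of each gene with a mean of at least 0.5 FPKM, by list, with a black bar at the median of the list, a gray line at 0 and dotted lines at 1.5-fold. The medians are 1.74 for the Fos genes and 0.82 for the Jun genes, and between -0.16 and 0.15 for the lists around them.

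As a check of the labels, all 9 genes of a list of hypoxia response genes, among them NDRG1, CA9 and EGLN3, were higher in hypoxia, with log2 changes from 1.02 to 5.58. That list was chosen with earlier results of these data known, so the check is not independent of them. Of 10 markers of squamous epithelium, 9 were analysed and above the limit, and their summed level was 938 FPKM in normoxia and 914 FPKM in hypoxia. Single markers moved in both directions, with log2 changes above 0 for 4, among them KRT5 (0.15), and below 0 for 5, among them EPCAM (-0.45) and KRT6A (-0.63), which was past 1.5-fold. Fibroblast markers summed to 0.175 and 0.210 FPKM, with 2 of 6 analysed, and leukocyte markers to 2.48 and 2.99 FPKM, with 2 of 5 analysed. The single endothelial marker analysed of 4, CDH5, was at 4.78 FPKM in normoxia and 2.83 FPKM in hypoxia, and its part in the results was not tested.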

How the data were processed

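Poly(A)-selected stranded RNA-seq libraries of SQ20B cells in normoxia (n = 4) and hypoxia (n = 4) were aligned by the authors with STAR 2.3.0.1 to hg19 and quantified with the Cufflinks suite 2.1.1, standard parameters and RefSeq annotation. The deposited FPKM values are the authors' own, 1 per condition over its replicates. The table also holds 4 columns of the authors' comparison (fold change, test statistic, p-value and q-value), which were not used. The planned limma test needs values of single samples and was not run, and the depth of single samples was not analysed here.

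RefSeq identifiers were paired with symbols through the annotation of GRCh38.p14 (names only), which matched 97.9% of 24812 transcripts, and FPKM values were summed per gene. A change was log2(FPKM + 0.1) in hypoxia minus normoxia. Genes with a mean of at least 0.5 FPKM were used, and a change of at least 1.5-fold was counted. The interval starts in the table count from 0 and were raised by 1. Gene models and 3′ untranslated regions came from GENCODE v44 on GRCh37 (MANE Select transcripts). The counting was run on simulated data with changes set well past 1.5-fold and little spread. That run checks the arithmetic, and it cannot speak for changes near 1.5-fold or for the unknown spread between replicates. Alternatives in the pseudocount, FPKM limit, fold, scaling and choice of transcripts were tried. Named genes were all members and, in each other list, up to 3 of the largest changes past 1.5-fold in each direction. One gene that this rule names is not reported here. Members and lists were chosen with earlier results of these data known. Python 3.11.15, numpy 2.4.6, pandas 2.3.3 and matplotlib 3.10.9 were used.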

Additional observations from a re-analysis of the deposited data

How the results depend on the processing

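The members counted as higher numbered 5 under every alternative of pseudocount, scaling, FPKM limit and choice of transcripts. They numbered 5 with a fold of 1.2 and 2 with a fold of 2. The share of all genes counted as higher moved with the setting. It was 5.94% with a pseudocount of 1, 18.3% with equal FPKM sums, 23.8% with a fold of 1.2 and 3.21% with a fold of 2. The single lower member, FOSL1, was not counted with a pseudocount of 1 (0 lower), with equal FPKM sums (0 lower) or with a fold of 2 (0 lower). Of all genes, 8.52%, 4.94% and 2.62% were counted as lower under these settings. Over the pseudocounts, scalings and choices of transcripts, the log2 change ranged from 1.41 to 2.46 for FOS, from 1.60 to 1.97 for FOSL2, from 0.71 to 1.04 for JUN, from 0.61 to 1.17 for JUNB, from 0.68 to 0.91 for IER3 and from -0.75 to -0.46 for FOSL1. JDP2 ranged from -0.44, with its most abundant transcript alone, to 0.23 with equal sums. Counts for the lists around the members moved by over 1.5 times for 6 of 12 with a fold of 2, 6 of 12 with a fold of 1.2, 3 of 12 with a pseudocount of 1, 1 of 12 with no FPKM limit and 1 of 12 with coding transcripts only. No paired analysis was possible because the table holds 1 value per condition, and for the same reason no replicate could be left out. Equal sums raised the median log2 change of all genes from -0.07 to 0.15. Levels near the limit, such as FOS in normoxia and EGR1, rest on an unknown number of reads.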
